A study of Mus musculus with 6 samples.

Results

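The 10 genes described here act in heme export, heme synthesis, heme breakdown, oxygen binding and iron handling, and all 10 were among the 20632 genes in the expression table of hind limb muscle. Mfsd7b, the older symbol of the heme exporter gene Flvcr1, was chosen by its measured difference between genotypes, so its levels are given as a description without a test. The other 9 genes (Mb, Alas1, Fech, Hmox1, Hmox2, Tfrc, Slc40a1, Fth1 and Slc11a2) were listed for what they do. All 10 passed the filter on low counts, which left 12116 genes for testing.

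RNA was taken from whole hind limb muscles (tibialis anterior, extensor digitorum longus, gastrocnemius, soleus and quadriceps) of unexercised male C57BL/6 mice aged 3 months. The 3 Baf155ΔMF mice carried floxed Baf155 alleles together with MCK-Cre, and are labelled Baf155 -/-, and the 3 Baf155WT controls carried the floxed alleles without Cre and are labelled wild type. Baf155, encoded by Smarcc1, is a core subunit of the SWI/SNF chromatin remodeling complex, and the creatine kinase promoter drives Cre in mature myofibers and also in heart, so other cells of the muscle keep the gene. Each mouse gave 1 library of 8426022 to 12469335 counts. Levels are CPM, a gene's counts scaled to a common library size, with TMM as a correction for library composition, and 3 counts corresponded to 0.23 to 0.351 CPM. As a check of the labels, Smarcc1 was 23.4, 19.5 and 17.0 CPM in Baf155WT and 7.05, 6.54 and 7.72 CPM in Baf155ΔMF mice, a log2 fold change of -1.49 ± 0.15 (SE; adjusted p = 0.00907, edgeR quasi-likelihood test with Benjamini-Hochberg adjustment). Sample titles begin with MS13 (1 Baf155WT and 2 Baf155ΔMF mice), MS15 (2 Baf155WT) or MS14 (1 Baf155ΔMF), and the labels do not say what these prefixes mean, so the difference was also computed within MS13, where both genotypes occur. The summed level of 10 myofiber markers was 194000 to 230000 CPM in Baf155WT and 205000 to 231000 CPM in Baf155ΔMF mice, whereas 5 heart muscle markers summed to at most 2.53 CPM, with Nppb at 0 in every mouse. In bulk muscle, fewer cells of a type and less RNA per cell cannot be told apart.

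Heme is built in a pathway that starts and ends in mitochondria: ALAS makes the first committed intermediate, and ferrochelatase inserts iron in the last step. Muscle uses heme in myoglobin, which binds oxygen in oxidative fibers, and in the cytochromes of the respiratory chain, while FLVCR1 moves heme out of the cell and has also been described as a choline transporter. Free heme is opened by heme oxygenases, which release its iron, and cellular iron is taken up through the transferrin receptor and DMT1, stored in ferritin and exported by ferroportin.

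RefSeq promoter windows on GRCm38.p6 were found for 6 of the 10 genes (Mfsd7b, Mb, Alas1, Hmox2, Tfrc and Fth1), 13 windows in all. The 250 bases upstream of the start are shown for Mfsd7b, because its level differed most between genotypes, and for Mb, because it encodes the main heme protein of muscle. Of the Mb windows, the one that overlaps no annotated exon is shown. Both are written 5′ to 3′ on the gene's strand, the minus strand in each case, at chr1:191026191-191026440 and chr15:77022788-77023037, and capitals mark matches to the antioxidant response element core TGACNNNGC.
Mfsd7b: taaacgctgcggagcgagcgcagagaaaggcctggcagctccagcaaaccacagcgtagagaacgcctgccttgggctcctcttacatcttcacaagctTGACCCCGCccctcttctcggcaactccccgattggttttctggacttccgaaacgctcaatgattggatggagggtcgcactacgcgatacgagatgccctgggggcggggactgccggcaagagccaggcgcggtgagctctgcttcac
Mb: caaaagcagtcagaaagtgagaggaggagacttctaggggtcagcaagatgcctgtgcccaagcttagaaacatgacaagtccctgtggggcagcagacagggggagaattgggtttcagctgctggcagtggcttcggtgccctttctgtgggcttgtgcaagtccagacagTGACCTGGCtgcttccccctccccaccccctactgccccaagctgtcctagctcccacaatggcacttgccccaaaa
Each of these windows held 1 match to TGACNNNGC, which began 151 bases before the start of Mfsd7b and 77 bases before the Mb start used here. That Mb start lies inside the annotated span of the gene. The Mb window at the outer end of the span (chr15:77050669-77050918) held no match to TGACNNNGC, and another, which overlaps the window shown, held the same match. This motif, searched on both strands, was found in 10.2% of 32851 RefSeq promoter windows. Neither window held ACGTG, the core bound by hypoxia-inducible factors, which 16.6% of windows held, or TTCNNNGAA, a STAT site, which 7.02% held. The E-box CANNTG occurred 2 times in the Mb window and not in the Mfsd7b window, against 66.2% of windows with at least 1. The base composition of the windows differed: the Mfsd7b window was 60.4% GC with 19 CG dinucleotides, more than 80.3% of windows had, and the Mb window was 57.2% GC with 1 CG, more than 7.87% had. The median window was 52.4% GC with 6 CG. The Mfsd7b window overlaps an exon of the antisense non-coding gene A230020J21Rik, which was not analysed here.

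Mfsd7b lies on chromosome 1 from 191005847 to 191026158 on the minus strand. Its level was 41.4, 43.5 and 34.6 CPM in the 3 Baf155WT mice and 18.7, 21.6 and 15.7 CPM in the 3 Baf155ΔMF mice, from 388 to 569 counts in Baf155WT and 134 to 208 counts in Baf155ΔMF. Every Baf155ΔMF mouse was below every Baf155WT mouse. The means were 39.9 ± 4.65 and 18.7 ± 2.96 CPM (SD, n = 3 each), so Baf155ΔMF muscle had 46.8% of the Baf155WT level, a log2 fold change of -1.09. Within MS13 the difference was -1.04, and it ran from -1.21 to -0.98 over the other settings and with each mouse left out. The gene was chosen by this difference, so these values only describe it. Reads from the antisense gene that overlaps it cannot be told apart from its own unless strand was used in counting, which is not given in the sources used here. The same holds for Mb (Apol6 and Gm49540), Alas1 (4930500F10Rik), Hmox2 (Cdip1) and Slc11a2 (Gm5475), each overlapped by the genes in brackets on the other strand.

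Set on a scale per length, the 10 genes spanned a wide range. In CPM per kilobase of exon, Baf155WT levels were on average 1660 for Mb, 138 for Fth1, 38.6 for Tfrc, 23.0 for Alas1, 12.3 for Hmox2, 9.32 for Fech, 7.71 for Mfsd7b, 5.41 for Slc11a2, 4.23 for Slc40a1 and 3.93 for Hmox1. Each gene's Baf155WT mice were above those of the next gene in this order, except that Slc40a1 (3.53 to 5.17) and Hmox1 (3.61 to 4.41) overlapped. The lengths are the union of all annotated exons, from 1492 bases for Mb to 13838 for Fech, and the order depends on them. Fech, with a mean of 129 CPM, came below Hmox2, with 27.3 CPM, through its length. Which exons the muscle transcripts hold was not tested. In Baf155ΔMF muscle, Mfsd7b came to 3.61 CPM per kilobase (3.03 to 4.17), below Slc11a2 at 4.61 and Slc40a1 at 4.20 and above Hmox1 at 3.28. Neighbours among these 4 genes overlapped in Baf155ΔMF mice: Slc11a2 began at 4.08, Slc40a1 ran from 4.04 to 4.48, and Hmox1 reached 4.07.

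**Figure D1:**
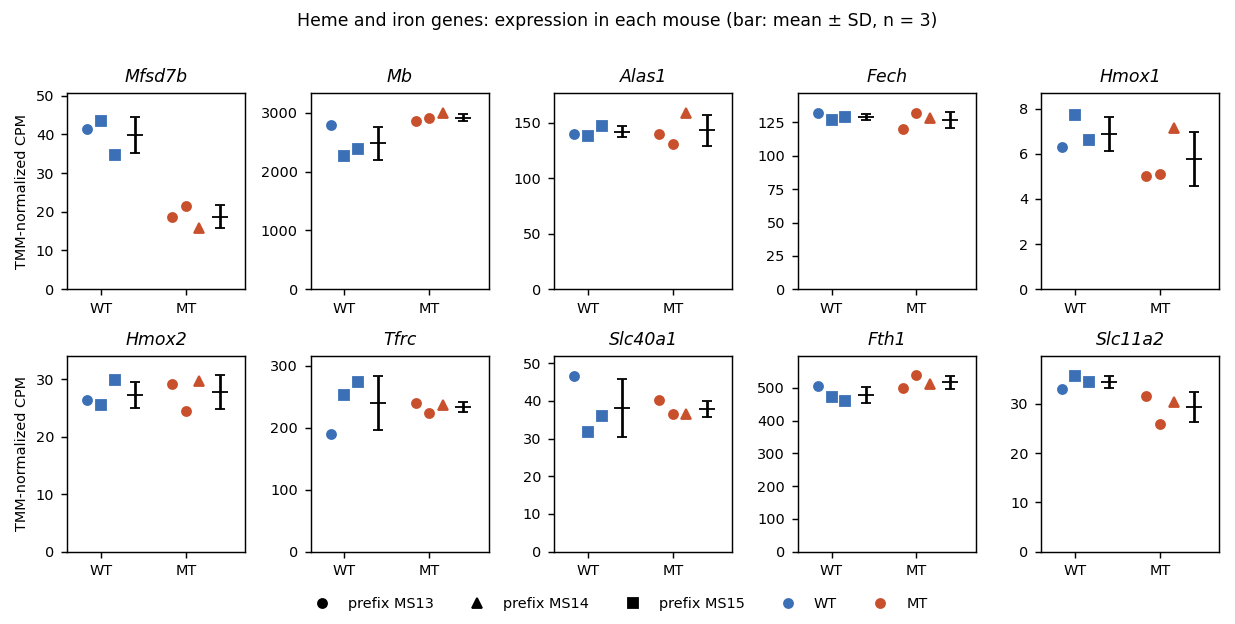
Level of each of the 10 genes in each mouse, as TMM-normalized CPM with an axis of its own per gene. Points are mice, marked by title prefix, and bars are the mean and SD of 3 mice; the genotypes separate for Mfsd7b, Slc11a2 and Mb.

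The closest relative of Mfsd7b, Mfsd7c (now Flvcr2), encodes a transporter of the same family. It was near the limit of detection, at 0.777, 1.22 and 1.16 CPM in Baf155WT and 1.17, 1.04 and 0.468 CPM in Baf155ΔMF mice. The genotypes overlapped and the 95% interval of its log2 fold change (-1.12 to 0.65) was wide. Across the 6 mice, the 3 genes whose log2 CPM followed that of Mfsd7b most closely were Slc52a2, a riboflavin transporter (Pearson r = 0.981), Mcm9, a helicase-like protein of DNA repair (r = 0.978), and Wdr36, a factor of ribosome assembly (r = 0.978). These values are a description, since they were picked as the highest of 12116 genes and the 6 mice fall into 2 genotypes. All 3 genes were lower in every Baf155ΔMF mouse than in every Baf155WT mouse, which their choice by correlation with Mfsd7b made likely. Of all genes tested, 5.57% were lower without overlap. The 3 differences were far smaller than that of Mfsd7b: Slc52a2 had 75.0% of its Baf155WT level, Mcm9 70.5% and Wdr36 89.6%. Slc52a2 and Mcm9 rest on 13 to 37 counts per mouse.

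For the 9 genes chosen by function, none passed an adjusted p of 0.05 in edgeR, and none had an unadjusted p under 0.05. The unadjusted p fell under 0.05 in other fits to all 6 mice for Mb (0.0242 with DESeq2 and 0.0423 with limma-voom). The same held for Slc11a2 (0.0442 with limma-voom and 0.0282 with library size alone), and neither gene passed the adjusted limit in these fits. Adding the prefix to the model leaves only the MS13 mice, 1 of them Baf155WT, to set the genotype difference. That model gave log2 fold changes of 0.29 for Tfrc and -0.28 for Slc40a1, which are listed without a test. Across all 12116 genes, 3 passed the adjusted limit (0.0248%). At an unadjusted p under 0.05, 557 genes were lower (4.6%) and 406 higher (3.35%) in Baf155ΔMF, and with library size alone as the scaling the split was 764 lower and 209 higher. The median log2 fold change of the 9 genes was -0.01, against 0 over all genes. The genotypes did not overlap for 2 of the 9, with Slc11a2 lower and Mb higher, and over all genes 675 were lower without overlap (5.57%) and 630 higher (5.2%).

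Mb encodes myoglobin, the oxygen-binding heme protein of muscle, and is on chromosome 15 from 77015487 to 77050670 on the minus strand. Its level was 2800, 2270 and 2390 CPM in Baf155WT mice and 2860, 2920 and 2990 CPM in Baf155ΔMF mice. The Baf155ΔMF mice were all above the Baf155WT mice, although the Baf155WT mouse of MS13 came close to them. The means were 2480 ± 279 and 2920 ± 60.3 CPM (SD, n = 3 each), and the log2 fold change was 0.24 (95% interval -0.01 to 0.49; adjusted p = 0.622, edgeR). Without Baf155WT replicate 1, the MS13 mouse, it was 0.33 (adjusted p = 0.0558), whereas within MS13 it was 0.05. Leaving that mouse out leaves no prefix with both genotypes, so genotype and prefix cannot be told apart there. Markers of slow fibers, which hold more myoglobin, summed to 1160, 1070 and 772 CPM in Baf155WT and 1130, 995 and 964 CPM in Baf155ΔMF mice, with 0 of 8 at an unadjusted p under 0.05, and their part in the level of Mb was not tested. Of the 10 myofiber markers, 2 were higher at an unadjusted p under 0.05, Myh2, the myosin of oxidative fast fibers (means 1760 and 2280 CPM, log2 fold change 0.38, adjusted p = 0.601, edgeR; 0.07 within MS13), and Myh1, the myosin of another fast fiber type (means 4860 and 6830 CPM, log2 fold change 0.49, adjusted p = 0.601; 0.29 within MS13), and their part was not tested either. Expected counts of Myh1 and Myh2 were fractional in all 6 mice. Cygb, the globin of connective tissue cells, was 20.4 and 19.9 CPM on average (log2 fold change -0.04).

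The enzymes at either end of heme synthesis had estimated log2 fold changes of at most 0.03 in size. Alas1, the housekeeping form of the first enzyme (chromosome 9, 106233455 to 106248654), was 140, 138 and 147 CPM in Baf155WT and 140, 131 and 159 CPM in Baf155ΔMF mice. Its groups overlapped, and the log2 fold change was 0.01 (95% interval -0.20 to 0.22; adjusted p = 0.976, edgeR). Fech, which encodes ferrochelatase (chromosome 18, 64452914 to 64490251), was 132, 127 and 129 CPM in Baf155WT and 120, 132 and 128 CPM in Baf155ΔMF mice. The groups overlapped here too, with a log2 fold change of -0.03 (95% interval -0.22 to 0.15; adjusted p = 0.927, edgeR). Over the alternatives and the left-out mice, the sign turned for both genes, within -0.07 to 0.07 for Alas1 and -0.09 to 0.01 for Fech. Of the enzymes between them, Urod had a log2 fold change of 0.03, Cpox of 0.04 and Ppox of 0.03.

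Of the heme synthesis list, 15 of 15 genes were tested, their median log2 fold change was 0.01, and 2 were lower and 0 higher at an unadjusted p under 0.05. Alas2, the form of ALAS made in red cell precursors, was 12.5, 22.7 and 11.6 CPM in Baf155WT and 5.87, 9.14 and 12.3 CPM in Baf155ΔMF mice. The genotypes overlapped through the third Baf155ΔMF mouse (log2 fold change -0.80, unadjusted p = 0.0182, adjusted p = 0.601, edgeR). Red blood cell markers, a list that holds Alas2 itself, summed to 778, 1230 and 624 CPM in Baf155WT and 371, 506 and 807 CPM in Baf155ΔMF mice, and of the 5 tested, 3 were lower at an unadjusted p under 0.05. Their most abundant gene, Hbb-bs, a beta globin of red cells, had means of 408 and 251 CPM, and the part of blood in the level of Alas2 was not tested. Slc25a38, the mitochondrial glycine carrier of heme synthesis, had means of 12.2 ± 1.63 and 9.26 ± 0.998 CPM (SD, n = 3 each), without overlap (log2 fold change -0.40, unadjusted p = 0.0187, adjusted p = 0.601, edgeR; -0.16 within MS13).

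Heme oxygenases open the heme ring and free its iron. The inducible form, Hmox1 (chromosome 8, 75093621 to 75100589), was 6.32, 7.73 and 6.60 CPM in Baf155WT and 5.02, 5.09 and 7.13 CPM in Baf155ΔMF mice, from 47 to 101 counts. One Baf155ΔMF mouse was within the Baf155WT range and the others were below it, and the log2 fold change was -0.27 (95% interval -0.67 to 0.13; adjusted p = 0.684, edgeR). Macrophages, which break down heme from red cells, express Hmox1 strongly. In this muscle 10 macrophage markers summed to 136, 399 and 325 CPM in Baf155WT and 124, 122 and 211 CPM in Baf155ΔMF mice, and 9 of 10 were lower at an unadjusted p under 0.05, led in level by Lyz2 (means 80.8 and 45.9 CPM). The macrophage sum in the Baf155WT mouse of MS13 was inside the range of the Baf155ΔMF mice, and its part in the level of Hmox1 was not tested.

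The constitutive form, Hmox2 (chromosome 16, 4726361 to 4766742), was 26.4, 25.6 and 29.9 CPM in Baf155WT and 29.1, 24.4 and 29.7 CPM in Baf155ΔMF mice. The groups overlapped and the log2 fold change was 0.02 (95% interval -0.23 to 0.28; adjusted p = 0.959, edgeR). Its expected counts were fractional in all 6 mice, so some of its reads were shared with other genes, and it overlaps Gm15859 on its own strand and Cdip1 on the other. The biliverdin reductases, which act after heme oxygenase, had log2 fold changes of -0.39 (Blvrb) and -0.18 (Blvra), with 0 of the 4 genes of heme breakdown at an unadjusted p under 0.05.

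**Figure D2:**
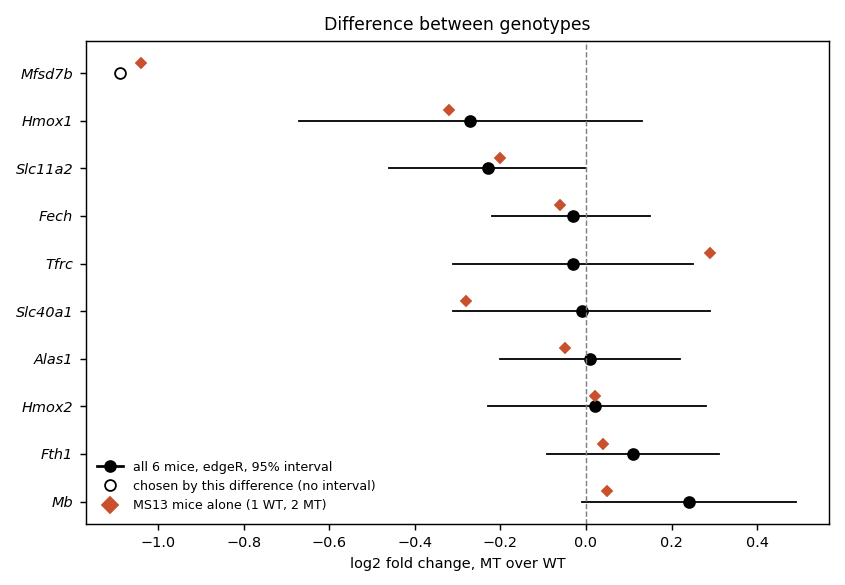
Log2 fold change of each gene, Baf155ΔMF (MT) over Baf155WT (WT). Filled circles are edgeR estimates over 6 mice with 95% intervals, the open circle is Mfsd7b without an interval, and diamonds are the values within MS13; the intervals of the 9 genes chosen by function lie between -0.67 and 0.49.

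Iron enters muscle cells mainly through transferrin and its receptor, which is encoded by Tfrc (chromosome 16, 32608920 to 32632794). Tfrc was 189, 253 and 273 CPM in Baf155WT and 239, 224 and 236 CPM in Baf155ΔMF mice. All Baf155ΔMF mice were within the Baf155WT range, and the Baf155WT mouse of MS13 was the lowest of all. The log2 fold change was -0.03 (95% interval -0.31 to 0.25; adjusted p = 0.948, edgeR), but 0.29 within MS13. The fit with the title prefix as a covariate takes the genotype difference from those same mice and gave the same 0.29. Baf155WT mice spread more, with an SD of 43.7 CPM against 7.73 CPM in Baf155ΔMF mice.

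Slc11a2 encodes DMT1, which carries iron out of endosomes, and lies on chromosome 15 from 100387898 to 100425072. It was 33.1, 35.7 and 34.4 CPM in Baf155WT and 31.7, 25.9 and 30.4 CPM in Baf155ΔMF mice. Every Baf155ΔMF mouse was below every Baf155WT mouse, and the nearest pair differed by little. Baf155ΔMF muscle had 85.3% of the Baf155WT level, a log2 fold change of -0.23 (95% interval -0.46 to 0.00; adjusted p = 0.622, edgeR), and -0.20 within MS13. Its expected counts were fractional in 4 mice. The macrophage sum ran from 136 to 399 CPM in Baf155WT and from 122 to 211 CPM in Baf155ΔMF mice, and its part in the level of Slc11a2 was not tested.

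Of the 11 genes listed for iron uptake, 8 were tested, with a median log2 fold change of -0.09, 1 lower and 0 higher at an unadjusted p under 0.05. The lower gene was Trf, which encodes transferrin, the iron carrier of plasma, at 25.2, 47.4 and 50.3 CPM in Baf155WT and 22.6, 20.6 and 30.4 CPM in Baf155ΔMF mice. The Baf155WT mouse of MS13 was within the Baf155ΔMF range, and the log2 fold change of -0.75 (unadjusted p = 0.00829, adjusted p = 0.601, edgeR) became -0.22 within MS13. Slc39a14, another iron importer, had a log2 fold change of -0.01, and Steap4, a metal reductase, of -0.15.

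Ferroportin, the iron exporter of cells, is encoded by Slc40a1 (chromosome 1, 45908068 to 45926523). Its level was 46.5, 31.8 and 36.0 CPM in Baf155WT and 40.3, 36.4 and 36.6 CPM in Baf155ΔMF mice. The Baf155ΔMF mice were again inside the Baf155WT range, with the Baf155WT mouse of MS13 now the highest. The log2 fold change was -0.01 (95% interval -0.31 to 0.29; adjusted p = 0.986, edgeR). It was -0.28 within MS13 and 0.16 without Baf155WT replicate 1, when no prefix holds both genotypes. With the title prefix as a covariate, where the difference rests on the MS13 mice, it was the same -0.28. Thus Tfrc and Slc40a1 had means that differed little between genotypes, while that mouse stood at opposite ends for the importer and the exporter.

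Systemic control of iron export had 8 of 11 genes tested, a median log2 fold change of -0.07, and 1 lower and 0 higher gene at an unadjusted p under 0.05. Hamp, which encodes the hormone hepcidin made in liver, had 0 counts in every mouse. Hfe, an MHC-like partner of the transferrin receptor, was 23.9, 29.4 and 26.7 CPM in Baf155WT and 18.0, 20.4 and 20.0 CPM in Baf155ΔMF mice. These groups did not overlap (log2 fold change -0.46, unadjusted p = 0.00204, adjusted p = 0.591, edgeR), and the value was -0.32 within MS13. Hfe2, which encodes hemojuvelin and is made in muscle, had means of 446 ± 49.3 and 405 ± 14.2 CPM (SD, n = 3 each; log2 fold change -0.14, adjusted p = 0.705, edgeR). Erfe, the hepcidin suppressor erythroferrone, listed as Fam132b, had a log2 fold change of -0.73 at means of 1.84 and 1.09 CPM (unadjusted p = 0.0734, adjusted p = 0.624, edgeR).

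Fth1 encodes the heavy chain of ferritin, the iron store (chromosome 19, 9980598 to 9985098). It was 507, 471 and 459 CPM in Baf155WT and 499, 540 and 511 CPM in Baf155ΔMF mice. One Baf155ΔMF mouse was inside the Baf155WT range and the others were above it, and the log2 fold change was 0.11 (95% interval -0.09 to 0.31; adjusted p = 0.732, edgeR) and 0.04 within MS13. The light chain, Ftl1, lay in the other direction, at 247, 327 and 285 CPM in Baf155WT and 193, 211 and 252 CPM in Baf155ΔMF mice. Its groups overlapped through a single Baf155ΔMF mouse (log2 fold change -0.39, unadjusted p = 0.0113, adjusted p = 0.601, edgeR), and the difference between the chains was not tested. Ftl1 was counted without its near-identical copies being analysed here, and its value is uncertain for that reason, although its expected counts were fractional in 0 mice. Macrophages are rich in ferritin light chain, and the part of the macrophage sum in the level of Ftl1 was not tested. Ncoa4, which delivers ferritin to lysosomes, was 99.8 and 96.2 CPM on average (log2 fold change -0.05).

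Transferrin receptor and ferritin mRNAs are themselves controlled by the iron-responsive proteins IRP1 and IRP2. Aco1, which encodes IRP1, had means of 26.3 and 25.5 CPM (log2 fold change -0.04, adjusted p = 0.905, edgeR), and Fbxl5, which degrades the iron-responsive proteins when iron is high, had a log2 fold change of 0.05. Ireb2, which encodes IRP2, had means of 33.1 and 41.9 CPM (log2 fold change 0.34, unadjusted p = 0.0928, adjusted p = 0.633, edgeR). None of the 3 genes had an unadjusted p under 0.05.

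Genes that sense or scavenge heme showed values in both directions. Of the 17 genes listed for heme transport and regulation beside Mfsd7b, 14 were tested, with a median log2 fold change of -0.09, 1 lower and 2 higher at an unadjusted p under 0.05. The lower gene was Cd163, the macrophage receptor for hemoglobin, at 17.5, 30.8 and 30.2 CPM in Baf155WT and 13.3, 13.2 and 18.6 CPM in Baf155ΔMF mice (log2 fold change -0.81, adjusted p = 0.601, edgeR). Cd163 is itself in the list of macrophage markers. The higher genes were the heme-binding clock repressors, Nr1d2 at 210, 128 and 105 CPM against 215, 213 and 214 CPM, and Nr1d1 at 104, 51.4 and 26.7 CPM against 127, 110 and 90.7 CPM. In both, the Baf155WT mouse of MS13 was close to the Baf155ΔMF mice, the log2 fold changes of 0.54 and 0.85 had adjusted p-values of 0.601 and 0.602 (edgeR), and within MS13 they were 0.03 and 0.18. Expected counts of Nr1d1 were fractional in all 6 mice. Slc48a1, a carrier that moves heme out of endosomes, and Abcg2, another heme exporter, had log2 fold changes of -0.12 and -0.07.

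The list for mitochondrial iron and iron-sulfur clusters had 19 of 19 genes tested, a median log2 fold change of -0.04, and 0 lower and 1 higher gene at an unadjusted p under 0.05. That gene was Iba57, an assembly factor of iron-sulfur proteins, at 8.74, 6.73 and 5.71 CPM in Baf155WT and 9.61, 8.93 and 10.2 CPM in Baf155ΔMF mice. The Baf155ΔMF mice were all above, and the log2 fold change was 0.44 (adjusted p = 0.601, edgeR) and 0.08 within MS13. Fdx1, a ferredoxin, had a log2 fold change of -0.25.

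Of the 16 genes for choline uptake and phosphatidylcholine synthesis, listed because FLVCR1 is also a choline transporter, 11 were tested, with a median of 0 and 0 genes at an unadjusted p under 0.05. Slc44a1, a choline transporter of the plasma membrane and mitochondria, was 34.0, 32.4 and 32.1 CPM in Baf155WT and 26.7, 28.5 and 30.9 CPM in Baf155ΔMF mice. Its groups did not overlap (log2 fold change -0.20, adjusted p = 0.622, edgeR). Ept1, an enzyme of phosphatidylethanolamine synthesis, did not overlap in the other direction (log2 fold change 0.17, adjusted p = 0.66, edgeR).

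**Figure D3:**
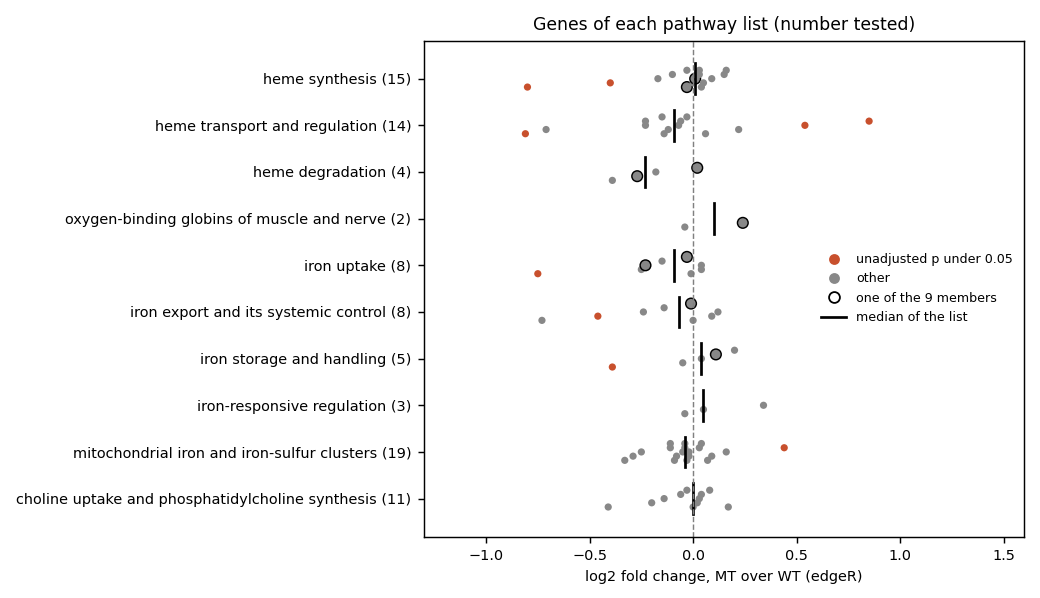
Log2 fold change, Baf155ΔMF (MT) over Baf155WT (WT), of each gene tested in 10 lists of heme, iron and choline genes, with Mfsd7b left out. Points are genes, bars are list medians, which lie between -0.23 and 0.10, and 9 genes at an unadjusted p under 0.05 are coloured.

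Together the lists held 105 genes beside Mfsd7b, of which 89 were tested. Their median log2 fold change was -0.03, with 36 above 0 and 53 below, against 6033 above and 6083 below over all genes. At an unadjusted p under 0.05, 6 were lower and 3 higher, against 4.6% lower and 3.35% higher over all genes, and 0 passed an adjusted p of 0.05. The genotypes did not overlap for 8 lower and 6 higher genes, against 5.57% lower and 5.2% higher over all genes. The same shares of all genes apply to the counts given above for each list. One library moved these counts: without Baf155WT replicate 1, the mouse of MS13, 12 of the 89 genes passed an adjusted p of 0.05, when 955 of 12288 genes did so (7.77%). Of the 12, 6 were lower (Alas2, Hp, Cd163, Trf, Hfe and Ftl1) and 6 higher (Bach1, Nr1d1, Nr1d2, Pcbp2, Ireb2 and Iba57), and none of the 9 genes chosen by function was among them. Without that mouse, no title prefix holds both genotypes, so genotype cannot be told apart from prefix in this setting.

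**Figure D4:**
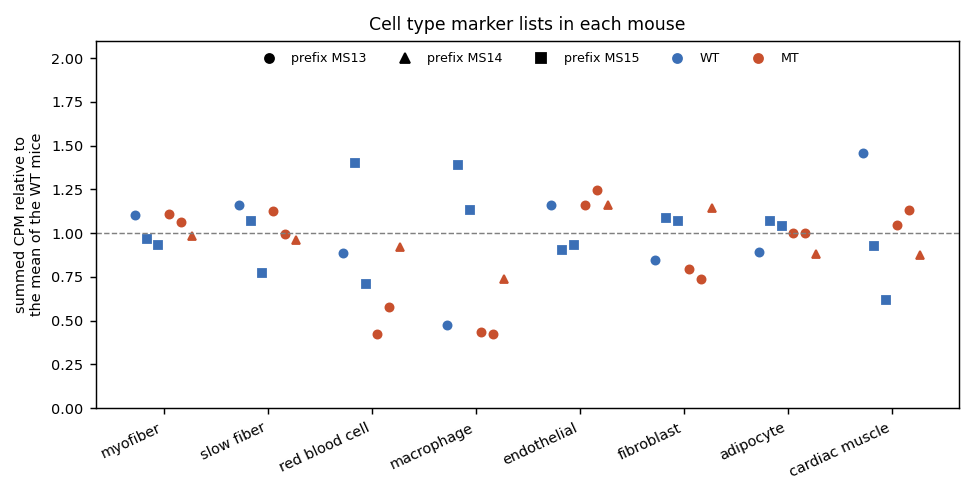
Summed CPM of the marker genes of each cell type in each mouse, divided by the mean of the Baf155WT (WT) mice, which is the dashed line. Points are mice, marked by title prefix. Red blood cell and macrophage sums ran from 624 to 1230 and 136 to 399 CPM in Baf155WT mice and from 371 to 807 and 122 to 211 CPM in Baf155ΔMF (MT) mice.

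The ratio of the mean sums, Baf155ΔMF to Baf155WT, was 0.639 for red blood cell and 0.531 for macrophage markers, and nearer to 1 for the other lists, at 1.19 for endothelial, 0.893 for fibroblast and 0.961 for adipocyte markers. Endothelial markers summed to 282 to 363 CPM in Baf155WT and 362 to 389 CPM in Baf155ΔMF mice, with 3 of 8 higher at an unadjusted p under 0.05. Fibroblast markers ranged from 3470 to 4450 and from 3030 to 4690 CPM, and adipocyte markers from 171 to 205 and from 169 to 192 CPM. No marker of any list passed an adjusted p of 0.05 in edgeR, and their part in the levels of the 10 genes was not tested.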

How the data were processed

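Total RNA of whole hind limb muscle was sequenced from 3 Baf155WT and 3 Baf155ΔMF mice with a stranded total RNA kit, 1 library per mouse, and genotype labels set the groups. The authors deposited expected counts, estimated read numbers per gene without normalization, for 20632 gene symbols. The submitters' processing notes name CASAVA 1.8.2, cutadapt 1.10, Bowtie2 2.2.7, TopHat2 2.1.1 and RSEM 1.2.30 and the build mm10; the annotation and strand setting are not given in the sources used here.

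Genotypes were compared on the rounded counts with edgeR 4.0.16 under R 4.3.3 (filterByExpr with a minimum count of 10 and total of 15, TMM, quasi-likelihood F test without covariate, Benjamini-Hochberg adjustment over 12116 genes). The filter left out 4358 genes at 0 in all mice and other low genes, and the biological coefficient of variation was 0.111. Intervals are 95% intervals of the model, floors are 3 counts and cover counting error only, and p-values measure the spread between single libraries of different mice. The value within MS13 is the log2 ratio of mean CPM, without a test. CPM per kilobase uses the union of exons in GENCODE M21 (GRCm38), which also gave gene positions; promoters are from RefSeq. The table's own symbols were used, and Ahsp was not matched.

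The 10 genes, the gene lists and the markers were chosen with earlier results of these data known. Named are the 10 genes, Smarcc1, their paralogs and partners, the 2 other genes with the smallest unadjusted p in each list of 3 or more tested, the 3 genes most correlated with Mfsd7b, and in each marker list the most abundant gene and those at 0. Myh1 and Myh2 were named after their values were seen. The genes named without a p in the lists, and those called without a mouse, were chosen after their values were seen. Alternatives were other scalings, DESeq2 1.42.0, limma 3.58.1 with voom, no filter beyond 1 count, the title prefix as a covariate and each mouse left out. The test was checked on simulated data.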

Additional observations from a re-analysis of the deposited data

How the results depend on the processing

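Mfsd7b stayed lower, and Mb, Fth1 (higher), Hmox1 and Slc11a2 (lower) kept their direction, in all 13 alternatives. Of these, the title prefix as a covariate and the MS13 mice alone give the same difference. Mfsd7b was chosen by its difference, and the genotypes did not overlap for Mfsd7b, Mb and Slc11a2. Leaving out a mouse could therefore hardly turn the sign of these genes. The covariate fit is left aside here because its difference rests on 1 Baf155WT mouse. In the other alternatives that gave a test, 0 of the 9 genes chosen by function passed an adjusted p of 0.05. The number of genes past that limit, 3 with TMM and all mice, was 22 with DESeq2, 5 with limma-voom, 17 with at least 1 count in all and 16 with the title prefix as a covariate. With each mouse left out it ran from 0 to 955: 0 without Baf155WT replicate 2 (451 genes at an unadjusted p under 0.05) or Baf155ΔMF replicate 2 (568), and 955 without Baf155WT replicate 1. In that last setting no prefix holds both genotypes, so genotype and prefix cannot be told apart. The pathway genes at an unadjusted p under 0.05, 9 in all mice, ran from 5 (without Baf155WT replicate 2) to 22 (without Baf155WT replicate 1). Over all genes the counts in these 3 settings were 963 of 12116, 451 of 12222 and 2923 of 12288. For Smarcc1 the covariate fit gave a log2 fold change of -1.78. With each mouse left out it ran from -1.59 to -1.36 and lost its adjusted p (0.0533 to 0.0678) without Baf155WT replicate 2 and Baf155ΔMF replicates 1 and 2, with values of -1.50, -1.48 and -1.43. Signs turned where differences were near 0. Scaling by library size only, which moved the median of all genes to -0.06, gave -0.05 for Alas1 and -0.04 for Hmox2. The title prefix as a covariate gave -0.05 for Alas1 and 0.29 for Tfrc, the same estimates as from the MS13 mice alone. The limma-voom fit gave 0.01 for Slc40a1. With each mouse left out, log2 fold changes ran from -0.07 to 0.07 for Alas1, -0.06 to 0.01 for Fech, -0.02 to 0.11 for Hmox2, -0.17 to 0.08 for Tfrc and -0.12 to 0.16 for Slc40a1. Within MS13 alone, Mb was 0.05 and Fech -0.06. The cause was not tested. No paired analysis was possible because the genotypes share fewer than 2 replicate numbers in the sample titles. With 3 mice per genotype and 47 to 101 counts per mouse for Hmox1, its interval allows differences of either sign.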
